A study of Mus musculus with 4 samples.

Results

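STAT6 loss in Th2 cells was measured as the difference between 2 of the series' 4 expression arrays, the array of STAT6-deficient T cells in Th2 culture minus the array of wild type T cells in Th2 culture. The members were all 45037 of 45101 probe sets that are not the array's own controls. Of these, 34945 carried 1 gene name, and they gave 18193 genes. Naive CD4+ T cells (CD44-, CD62L+) were sorted from spleen and lymph nodes of C57BL/6J mice or of the knockout strain B6.129S2©-STAT6<tm1Gru>/J. Antibodies to CD3 and CD28 activated both Th2 groups for 3 days in the presence of interleukin-4 at 10 ng/ml and an antibody that blocks interferon gamma. The cells were then grown for 4 days in interleukin-2 at 50 U/ml with interleukin-4 at 10 ng/ml. On day 7 they received antibodies to CD3 and CD28 again, for 2 h and with interleukin-4 at 10 ng/ml, so RNA was taken from freshly restimulated cells. The other 2 arrays held Th1 cultures of C57BL/6J (wild type) and C57BL6-STAT4<tm1> (STAT4-deficient) cells, which went through the same days with interleukin-12 in place of interleukin-4 (20 ng/ml, and 10 ng/ml in the 4 days of growth) and an antibody that blocks interleukin-4 in place of the one against interferon gamma. These 2 arrays were not part of the difference. They gave levels set side by side with the Th2 arrays. They also entered the choice of each gene's probe set, the level minimum defined below and some of the other scalings. How many mice or cultures stand behind an array is not given in the sources used here. The number of arrays limits every statement, since 1 array a group gives no spread between replicates, and no difference below was tested.

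Interleukin-4 binds a receptor on T cells whose Janus kinases phosphorylate STAT6, which then enters the nucleus as a dimer and binds DNA. In activated CD4+ T cells this signal is known to raise Gata3 and to favour the Th2 fate, with secretion of interleukin-4, interleukin-5 and interleukin-13, and to hold back T-bet and the Th1 fate. SOCS proteins made in response limit the same receptors.

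Values are log2 RMA expression values, so a difference of 1 is a 2-fold difference. Each gene is represented by the probe set that was brightest on average across all 4 arrays. A gene was called higher or lower where the log2 difference was at least 1 and the brighter Th2 array reached the level minimum. This minimum was the median of all probe sets outside the controls on the 4 arrays, 5.82. Levels were not compared between genes, since probe sets differ in brightness. The level minimum left 11490 genes. Without STAT6, 806 of them (7.01%) were called higher and 2237 (19.5%) lower, and their median difference was −0.30. The counts of each gene group below are read against these shares and this median. Over all 18193 genes the median was −0.19 as deposited. This all-gene median changed by 0.14 after median centring, 0.15 after loess, 0.17 after quantile normalization and −0.12 when scaled by the hybridization controls. The calls split 36.0% higher after median centring, 40.9% after loess, 43.4% after quantile normalization and 20.1% when scaled by the hybridization controls, against 26.5% as deposited. In bulk RNA, fewer cells of a type and less RNA per cell cannot be told apart.

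**Figure D1:**
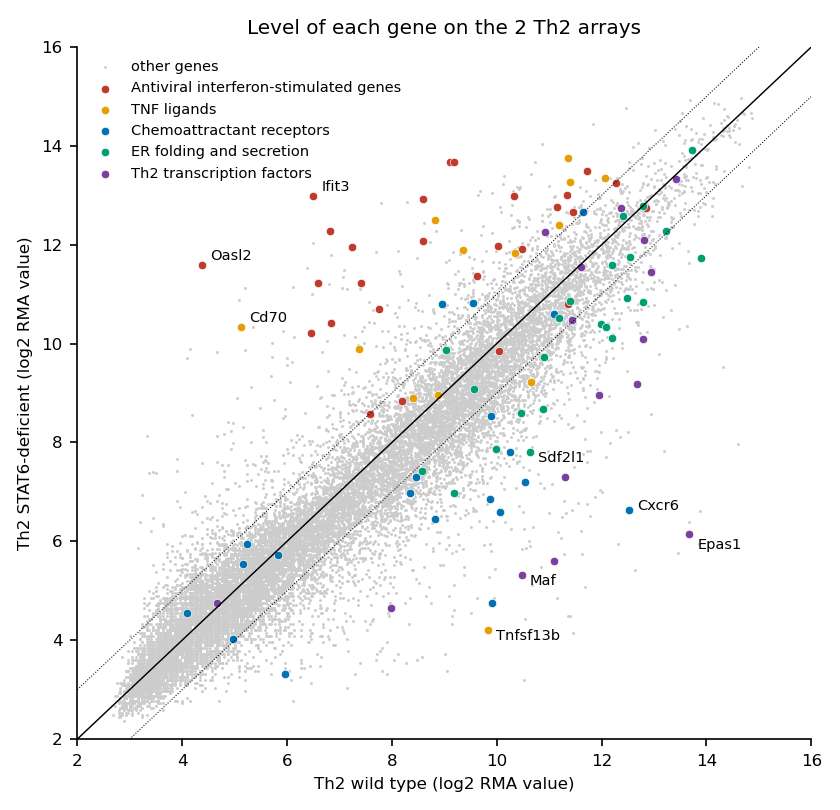
Log2 RMA value of each of 18193 genes in Th2 wild type cells (horizontal axis) and Th2 STAT6-deficient cells (vertical axis), 1 array each, with 5 gene groups in colour. The solid line marks equal values and the dotted lines a 2-fold difference. Antiviral genes lie at or above the solid line except for 3 of 27, and most chemoattractant receptors and Th2 transcription factors lie below it.

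The quality of the RNA differed between the arrays. The 3′ end signal of the actin control exceeded its 5′ end signal by 2.08 log2 units on the STAT6-deficient array, against 0.32 to 0.85 on the other 3. For the Gapdh control the difference was 0.77 against −0.16 to 0.17. The transferrin receptor control was also highest there, by a narrow margin (4.02 against 3.94 in Th2 wild type and 2.27 and 3.48 in the Th1 arrays), and pyruvate carboxylase was higher in Th2 wild type (2.51 against 2.21). The part of these differences in the values below was not tested. Stat6 itself did not separate the genotypes, since its probe sets read 10.92 and 8.40 in STAT6-deficient cells and 10.93 and 8.93 in wild type cells. The sources used here do not place these probes relative to the deleted part of Stat6, and probes that lie outside it cannot check the knockout. All 7 measured T cell markers reached the level minimum on every array, with summed linear signals of 25600 in Th2 wild type and 30600 in STAT6-deficient cells. Of the myeloid and dendritic markers, 5 of 11 reached it in wild type and 3 in STAT6-deficient cells, with summed signals of 894 and 738. Adgre1 (−2.33), Itgax (−1.73) and Fcgr3 (−1.59) were lower, and Mpeg1, a gene of macrophages and dendritic cells, was higher (8.12 against 4.66), while Lyz2, Tyrobp and Itgam were under the minimum on both. For CD8 T cells and NK cells the counts were 2 and 1 of 6 (525 and 239). Cd8b1 was lower (−2.07), while Cd8a (−0.34) was under the 2-fold limit. For B cells they were 3 and 2 of 8 (1190 and 1260), with Ms4a1 and Cd79a under the minimum. Cd22 was called higher (1.04, or 0.92 with the hybridization controls). Ighm (0.14), Pax5 (−0.74) and Cd79b (−0.999) were under the 2-fold limit. For mast cells and basophils the counts were 2 and 1 of 7 (572 and 287), with Cpa3 at −3.74 and Fcer1a under the minimum. Gata2 (0.87) was under the 2-fold limit, and Kit (1.74) was under the level minimum as deposited. After median centring 3 of these markers were at the minimum, 2 called higher and 1 lower. For neutrophils and eosinophils the counts were 1 and 1 of 7, and for erythroid cells and platelets 1 and 1 of 5.

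Several genes that carry or restrain the interleukin-4 signal had lower values without STAT6. Of the 13 members of the interleukin-4 signal chain at the level minimum, 7 were called lower and none was called higher (median −1.10). Il4ra, the receptor chain that binds interleukin-4, read 10.76, 10.46, 11.95 and 9.42 in wild type Th1, STAT4-deficient Th1, wild type Th2 and STAT6-deficient Th2 cells, the order used for all runs of 4 values below. Th2 wild type cells were the highest of the 4 and STAT6-deficient cells the lowest, 5.76-fold apart within Th2, and the 3 Il4ra probe sets differed by −3.24 to −0.98.

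The receptor's kinase genes Jak3 (−1.78) and Jak1 (−1.10) were lower as well. The Jak1 call was lost after median centring (−0.97), quantile normalization (−0.93) and loess (−0.89). Tyk2, another kinase of the family, differed by 0.23. Irs2, the adaptor that links the receptor to growth signals, read 9.16, 7.37, 9.63 and 7.26. Its STAT6-deficient value lay beside that of STAT4-deficient Th1 cells and below both wild types. The feedback inhibitors Socs3 (−2.60) and Socs1 (−2.12) and the phosphatase gene Inpp5d (−2.28) were lower, while Cish (−0.45), Socs5 (0.12), Ptpn11 (0.24) and Ptpn6 (0.39) were under the 2-fold limit. The receptor chain Il13ra1 was under the level minimum on every array.

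Transcription factors of the Th2 program had the lowest median of the 44 gene groups, −2.70, with 9 of 15 called lower and 1 higher. Prdm1, which encodes Blimp-1, read 7.34, 5.92, 11.09 and 5.61, so only Th2 wild type cells stood well above the others. Epas1, a hypoxia-inducible factor gene, read 6.24, 7.18, 13.67 and 6.14, and Pparg, the fat-sensing nuclear receptor, read 5.99, 5.27, 11.30 and 7.29. Both were brightest in Th2 wild type cells, and the STAT6-deficient value of Epas1 was near those of the Th1 arrays.

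Ikzf3, which encodes the lymphoid factor Aiolos, read 9.53, 9.51, 11.96 and 8.97. Th2 wild type cells stood above the other 3 arrays, and STAT6-deficient cells were the lowest. Gata3 read 9.31, 11.84, 12.95 and 11.45, so STAT6-deficient Th2 cells held 2.83-fold less than their wild type and more than Th1 wild type cells. For Maf, 5 of 6 probe sets differed by −5.16 to −7.90, and 1 by 0.05. Nfil3 (−3.49), Etv5 (−3.32) and Batf (−2.70) completed the lower genes.

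The factors that the list also holds but that were not called were Irf4 (−0.08), Gfi1 (−0.06), Rbpj (−0.71), Junb (−0.96) and Ikzf1 (0.37), and Bhlhe41 was under the level minimum. Nfatc1, which acts downstream of calcium signals from the T cell receptor, was the higher member (1.35), and its median over 5 probe sets was 0.91. Factors of the Th1 program split. Tbx21, which encodes T-bet, read 12.26, 11.36, 7.69 and 11.85, and Eomes, its relative, was 1.09 (0.97 with the hybridization controls). Id2 (−2.63) and Hlx (−1.93) were lower, while Runx3 (−0.26), Stat4 (0.93), Irf1 (0.72), Bhlhe40 (0.74) and Zeb2 (−0.82) were under the limit as deposited. Stat4 passed it after median centring (1.07), loess (1.20) and quantile normalization (1.25).

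**Figure D2:**
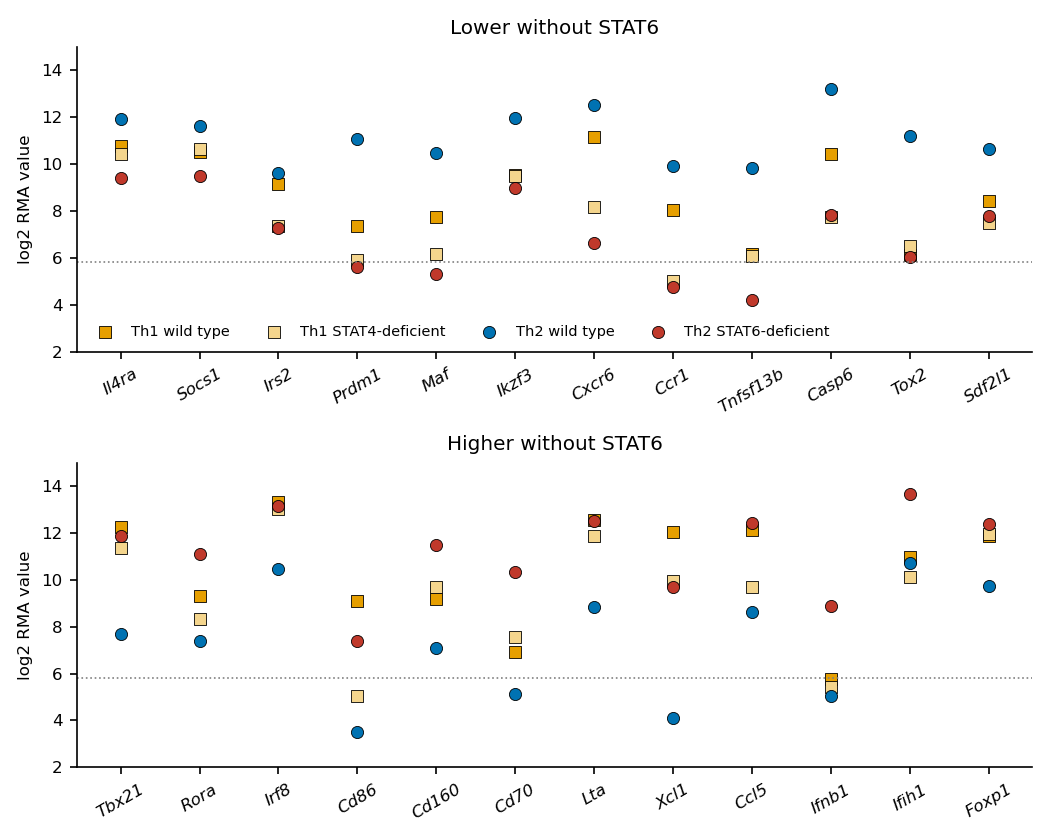
Log2 RMA values of 24 genes on the 4 arrays, squares for Th1 and circles for Th2 cells, with 12 genes called lower (top) and 12 called higher (bottom) without STAT6. The dotted line is the level minimum of 5.82. Prdm1, Tox2 and Tnfsf13b stood apart in Th2 wild type cells alone, and Ifnb1 stood apart in STAT6-deficient cells alone.

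The cytokine genes fell into separate sets. Il5, the eosinophil growth factor, read 4.34, 4.99, 12.31 and 5.95, and Il6 read 4.29, 3.38, 12.63 and 5.42. Both were bright in Th2 wild type cells alone. Il10, an anti-inflammatory cytokine, read 12.74, 5.94, 13.87 and 6.61, and Il24, of the same family, read 8.58, 6.31, 14.60 and 7.97. For Il10 the wild type arrays were the bright ones and both knockouts the dim ones.

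Il4 (9.06, 12.07, 14.17 and 13.22) and Il13 (7.80, 10.65, 12.26 and 12.08) did not follow that pattern, since STAT6-deficient cells lay within 1 log2 unit of Th2 wild type cells and well above Th1 wild type cells. The Il4 difference was −0.95 as deposited, −1.07 when scaled by the hybridization controls and −1.03 by quantile normalization. Il31 (−0.87), Il9 (−0.83) and Il3 (0.63) were under the limit, and Csf2, which encodes the growth factor GM-CSF, was higher (1.06, or 0.94 with the hybridization controls). Of the 11 other T cell cytokines, Il2, the T cell growth factor, read 14.53, 14.39, 12.46 and 14.77, Ifng read 14.67, 10.54, 8.18 and 10.20 and Lif differed by 1.02 (0.90 with the hybridization controls). STAT6-deficient cells had as much Il2 signal as the Th1 arrays but far less Ifng signal than Th1 wild type cells. Il21 (−5.88), Tgfb3 (−2.55) and Il16 (−1.66) were lower, and the median over the Il16 probe sets was −0.24.

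Receptors for attractants and the attractants themselves differed in opposite directions. Of 17 chemoattractant receptors, 11 were lower and 3 higher (median −1.38), whereas 10 of 15 chemokines were higher and 2 lower (median 2.50). Cxcr6, the receptor for the membrane chemokine CXCL16, read 11.15, 8.17, 12.52 and 6.62. Ccr1, a receptor for CCL3 and CCL5, read 8.04, 5.03, 9.91 and 4.76, and Ccr8, a receptor common on Th2 cells, read 8.12, 10.68, 10.54 and 7.20. For Cxcr6 and Ccr1 the knockouts were the lower array of each culture condition. Ccr2 was lower on its main probe set (−3.46), but its probe sets ran from −3.67 to 0.35. Cxcr3, a receptor of Th1 cells, read 12.26, 9.66, 8.95 and 10.80, and the lymph node homing receptor Ccr7 (1.28) and the prostaglandin receptor Ptger4 (1.02) were also higher. Ptger4 was 0.90 with the hybridization controls.

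Among the chemokines, Xcl1, made by activated T cells and NK cells, read 12.02, 9.97, 4.10 and 9.71. Ccl5 read 12.14, 9.68, 8.62 and 12.45, Ccl3 read 14.31, 12.17, 9.67 and 13.09 and Cxcl10, an interferon-induced ligand of CXCR3, read 10.64, 10.67, 7.79 and 12.84. Th2 wild type cells were the lowest array for each of these 4 genes, and STAT6-deficient cells were the highest for Ccl5 and Cxcl10. The neutrophil attractants Cxcl3 (3.03, 2.96, 10.52 and 3.20) and Cxcl2 (−1.99) were the lower members, and Cxcl3 was above the level minimum in Th2 wild type cells alone.

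The cytokine receptors included members in both directions, 8 lower and 3 higher of 23, with a median of −0.72. Il1r2, the decoy receptor for interleukin-1, read 9.19, 7.33, 12.68 and 9.16, and the signalling receptor Il1r1 read 6.14, 6.16, 8.91 and 5.51. Ifngr2, the signal-transducing chain of the interferon gamma receptor, read 6.12, 8.10, 8.93 and 6.18, so it was brighter in Th2 wild type than in Th1 wild type cells. The interleukin-18 receptor chains Il18r1 (12.78, 10.93, 8.28 and 10.22) and Il18rap (1.57) and the interleukin-15 receptor chain Il15ra (8.14, 8.29, 7.82 and 10.25) were higher. Il15ra was highest in STAT6-deficient cells, while Il18r1 stayed below Th1 wild type cells. The TGF-beta co-receptor Tgfbr3 differed by −2.44.

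Ligands of the tumour necrosis factor family were mostly higher without STAT6. Of 13 TNF ligands, 9 were called higher and 2 lower (median 1.47). Cd70, the ligand of CD27, read 6.90, 7.56, 5.13 and 10.34, and the Th2 wild type value was under the level minimum. Lta, which encodes lymphotoxin alpha, read 12.53, 11.87, 8.82 and 12.51. Fasl, the death ligand, read 11.70, 10.86, 9.36 and 11.90, and Tnfsf4, which encodes the ligand of OX40, read 9.34, 9.13, 7.38 and 9.88. Th2 wild type cells were the lowest of the 4 arrays for each of these, and Cd70 was clearly highest in STAT6-deficient cells.

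Tnfsf13b, which encodes the B cell survival factor BAFF, went the other way and read 6.18, 6.08, 9.83 and 4.21. Its other probe sets were under the level minimum, and the median over its 3 probe sets was −1.37. Tnfsf8, the ligand of CD30, was lower (−1.42), and so was its receptor Tnfrsf8 (−2.89). Of 12 TNF receptors, 4 were lower and 2 higher. Their median was 0.38 as deposited, 0.16 to 0.64 under the other scalings and −0.06 with the median of each gene's probe sets. Tnfrsf25, the receptor DR3, read 10.14, 9.55, 7.65 and 10.68, and Fas was 1.61 higher.

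Of 17 costimulatory and inhibitory receptors and ligands, 8 were higher and 4 lower (median 0.94). Cd160, a receptor often found on cytotoxic cells, read 9.17, 9.69, 7.09 and 11.48. The ligands of CD28, Cd86 (9.12, 5.03, 3.50 and 7.38) and Cd80 (6.55, 5.37, 4.38 and 7.58), were higher than in Th2 wild type cells. Cd86 reached the level minimum in Th1 wild type and STAT6-deficient cells alone, and 2 of the 4 Cd80 probe sets were under it, with a median over all of 1.25. Btla, an inhibitory receptor, was 2.78 higher. Ctla4, which binds the same ligands as CD28 and restrains T cells, read 12.34, 9.68, 13.62 and 10.36, and Havcr2, which encodes TIM-3, read 7.25, 6.14, 11.37 and 8.88. Ctla4 was lower in the knockout of each culture condition, and Havcr2 was brightest in Th2 wild type cells. Icos (−1.26) and Pdcd1lg2 (−1.06) were lower too, the latter with calls lost after median centring (−0.93), quantile normalization (−0.92) and loess (−0.87).

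Of 19 genes of naive and memory T cells, 9 were higher and 3 lower (median 0.83). Dapl1 read 9.07, 10.85, 6.12 and 11.14, and Nsg2 read 9.71, 9.73, 6.06 and 9.22. Foxp1, a factor that keeps T cells quiescent, read 11.88, 11.95, 9.74 and 12.37, and its 8 probe sets differed by 2.02 to 3.80. For these 3 genes Th2 wild type cells were the lowest array, and STAT6-deficient cells lay near or above the Th1 arrays. The receptor gene Slamf6 was 2.45 higher. Il7r (−2.13), the receptor for the survival cytokine interleukin-7, and the chromatin organizer Satb1 (−2.03) were lower, as was the egress receptor S1pr1 (−1.16), whose call was lost after quantile normalization (−0.80) and loess (−0.89).

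Of 11 follicular helper genes, 6 were higher and 3 lower. Tox, a factor of exhausted and follicular T cells, read 7.21, 9.30, 4.75 and 7.55, while its relative Tox2 read 6.12, 6.53, 11.22 and 6.06. Tox was lowest in Th2 wild type cells and Tox2 was bright there alone. Sh2d1a, the adaptor SAP, was 1.73 higher. Bcl6 differed by 1.70 and −0.45 on its 2 probe sets. In the regulatory T cell list 5 of 11 were lower and 2 higher, with Entpd1 at −2.31 and Ikzf2 at 2.10. Foxp3 was under the level minimum on both Th2 arrays (5.13 and 5.27). Of 6 Th17 genes, Rora (9.31, 8.35, 7.39 and 11.11) and Ccl20 (3.12) were higher and Il1r1 was lower.

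**Figure D3:**
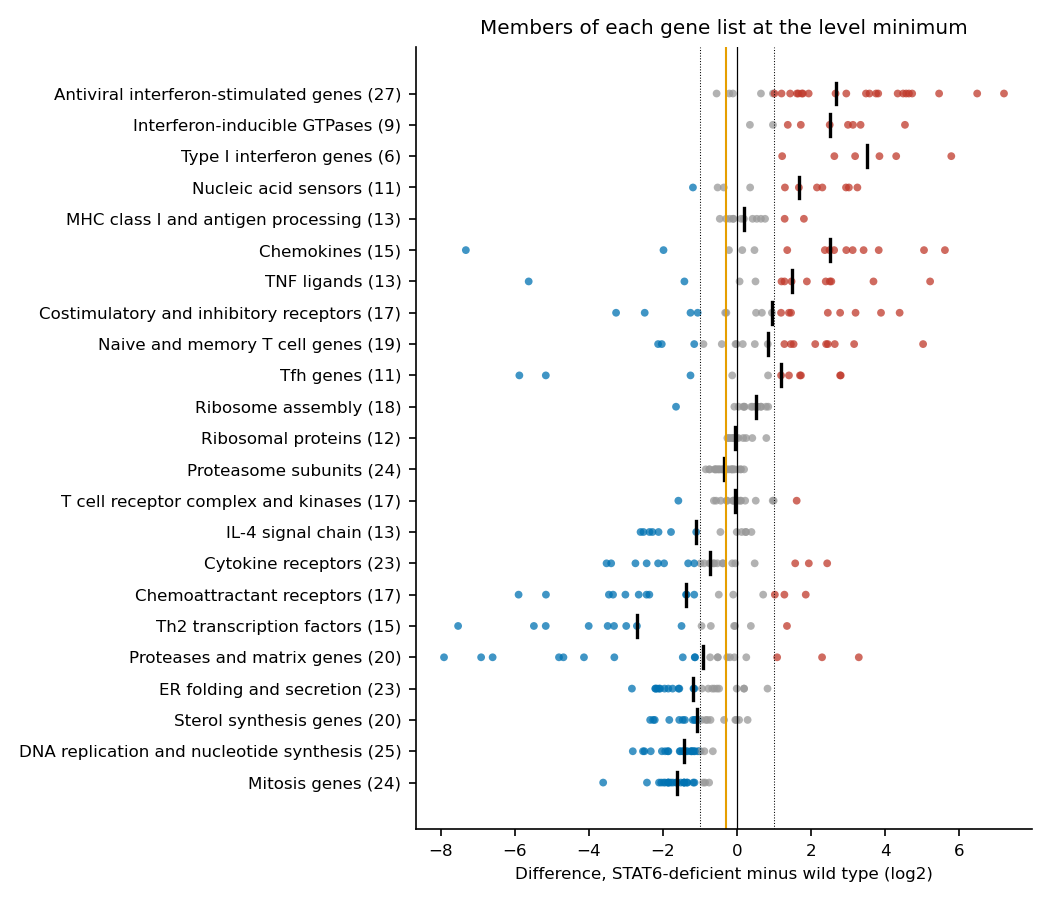
Difference between the Th2 arrays (STAT6-deficient minus wild type, log2) for each member at the level minimum of 23 gene groups, with the number of members in brackets. Red points were called higher, blue points lower and grey points neither. Black bars are medians, dotted lines the 2-fold limits and the orange line the median of all genes at the level minimum, −0.30. All members of the type I interferon and GTPase groups lie right of 0, as do 24 of 27 antiviral genes, and all members of the DNA replication and mitosis groups lie left of it.

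The type I interferon and antiviral genes had the highest medians of the 44 gene groups. Type I interferons are secreted when cells sense viral nucleic acid, and many genes they induce carry the interferon-stimulated response element in their promoters. Of 27 antiviral interferon-stimulated genes 22 were higher and none lower (median 2.66). The interferon-inducible GTPases, which attack membranes around microbes, had 7 higher and none lower of 9 (median 2.50). The 6 type I interferon genes that reached the level minimum were all higher (median 3.52), but they had to be bright in STAT6-deficient cells to reach the minimum, and 2 others of the 8 measured did not reach it. The response element was searched as TTTC and TTTC with 2 bases between them, on both strands, in the 250 bases before the RefSeq start. The windows below are 100 bases of the promoters of genes at least 16-fold higher that hold the element, shown in capitals. They are from RefSeq (GRCm38.p6), are read 5′ to 3′ along the gene, and the longer run of capitals in Oas1a is 2 overlapping copies.
Ifit3, chr19:34583362-34583461 (+ strand): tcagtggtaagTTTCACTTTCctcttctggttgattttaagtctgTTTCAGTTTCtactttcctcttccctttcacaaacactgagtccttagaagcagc
Ifna2, chr4:88683889-88683988 (- strand): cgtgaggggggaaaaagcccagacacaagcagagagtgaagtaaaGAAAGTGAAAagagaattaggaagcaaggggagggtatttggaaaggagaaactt
Cxcl10, chr5:92349040-92349139 (- strand): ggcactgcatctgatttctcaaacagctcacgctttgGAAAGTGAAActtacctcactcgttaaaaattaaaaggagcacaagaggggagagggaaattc
Slfn5, chr11:82951902-82952001 (+ strand): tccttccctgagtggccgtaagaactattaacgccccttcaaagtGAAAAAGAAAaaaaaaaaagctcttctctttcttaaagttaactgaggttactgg
Ddx60, chr8:61927987-61928086 (+ strand): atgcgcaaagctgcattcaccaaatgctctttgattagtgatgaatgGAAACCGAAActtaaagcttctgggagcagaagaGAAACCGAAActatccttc
Oas1a, chr5:120907526-120907625 (- strand): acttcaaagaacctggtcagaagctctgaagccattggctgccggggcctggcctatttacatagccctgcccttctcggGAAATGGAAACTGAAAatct
Calhm6, chr10:34127982-34128081 (- strand): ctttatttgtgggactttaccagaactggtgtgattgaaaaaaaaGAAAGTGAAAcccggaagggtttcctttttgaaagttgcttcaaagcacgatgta
Ifit1bl1, chr19:34602018-34602117 (- strand): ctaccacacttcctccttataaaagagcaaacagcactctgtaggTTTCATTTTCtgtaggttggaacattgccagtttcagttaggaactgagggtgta

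Oasl2, a relative of the antiviral oligoadenylate synthetases, read 5.24, 5.92, 4.38 and 11.59, and Ifit3, which binds viral RNA complexes, read 8.48, 9.19, 6.50 and 12.98. Oas1a read 7.09, 7.60, 7.24 and 11.96. In each, STAT6-deficient cells stood well above the 3 other arrays. Ifna2, an interferon alpha gene, read 5.87, 6.03, 5.09 and 10.87, Ifna4 read 6.20, 5.96, 5.72 and 10.01 and Ifnb1, the interferon beta gene, read 5.77, 5.41, 5.05 and 8.89. These 3 were near or below the level minimum on the other arrays. The interferon alpha genes are near-identical copies whose probes may read each other, so which member was bright is uncertain. The Gbp, Ifi200, Oas and Ms4a families hold related genes, and whether their probes read each other was not tested.

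Of 11 sensors of foreign nucleic acid, 7 were higher and 1 lower (median 1.67). Ifih1, the RNA sensor MDA5, read 10.96, 10.14, 10.72 and 13.66, and its relative Dhx58 read 6.33, 7.18, 8.15 and 11.40. Tlr7, an endosomal sensor of RNA, read 5.41, 7.50, 5.24 and 7.54 and was also above the minimum in STAT4-deficient Th1 cells. Ifi204 (3.02), of the DNA-sensing Ifi200 family, was higher too. Sting1, the adaptor for cytosolic DNA, was lower (−1.19), with the call lost after quantile normalization (−0.91) and loess (−0.93).

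Among the regulators of the response, Usp18 (7.76, 7.41, 10.14 and 13.38), which shuts off the type I receptor, Irf8 (13.31, 13.04, 10.45 and 13.17) and Irf7 (7.95, 8.27, 9.39 and 11.91), the main inducer of interferon alpha genes, were higher. Irf8 was as bright in the Th1 arrays as in STAT6-deficient cells, whereas Usp18 and Irf7 were not. The median of these 15 regulators was 0.15, and Ifngr2 and Socs1 were the lower ones. The receptor chains Ifnar1 (−0.05) and Ifnar2 (−0.61) and the response factors Irf9 (0.15) and Stat2 (0.61) were under the limit, and were named after their values were seen. Of the GTPases, Iigp1 was 4.53 higher, Gbp3 read 11.35, 9.99, 8.13 and 11.46 and Gbp2 read 13.42, 11.92, 9.91 and 13.04. For the Gbp genes STAT6-deficient cells lay close to Th1 wild type cells, and Th2 wild type cells were the lowest array.

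Genes of MHC class I and antigen processing, many of which also respond to interferon, differed little. Only Nlrc5 (1.80), the activator of the class I genes, and Tap1 (1.28), the peptide transporter, were called among 13, with a median of 0.18. The heavy chain genes H2-K1 (−0.29) and H2-D1 (−0.47) and the light chain B2m (−0.11) were under the limit and were named after their values were seen.

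The share of promoters holding the element followed the size of the difference on the higher side. Of 14452 measured genes with a promoter in the table, 2.63% held it (380). Among genes called higher the share was 7.15% (45 of 629), and it was 17.1% at 4-fold (27 of 158), 29.3% at 8-fold (17 of 58) and 42.9% at 16-fold or more (12 of 28, 95% Wilson interval 26.5 to 60.9). Among genes called lower it was 2.28% (42 of 1842), and 4.48% at 16-fold or more (3 of 67). The 12 were Calhm6, Cxcl10, Ddx60, Ifi213, Ifit1, Ifit1bl1, Ifit3, Ifna2, Ifna4, Oas1a, Rsad2 and Slfn5. Each group of higher genes contains the next, and near-identical family members share promoter sequence, so the points are not independent. Of the genes with a promoter in the table, 8 of 20 antiviral genes, all 6 GTPase genes and 7 of 8 type I interferon genes held it. The 7 include Ifna9 and Ifna11, which were under the level minimum on both Th2 arrays, and the antiviral genes include Ifitm2, which was not called (−0.11).

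**Figure D4:**
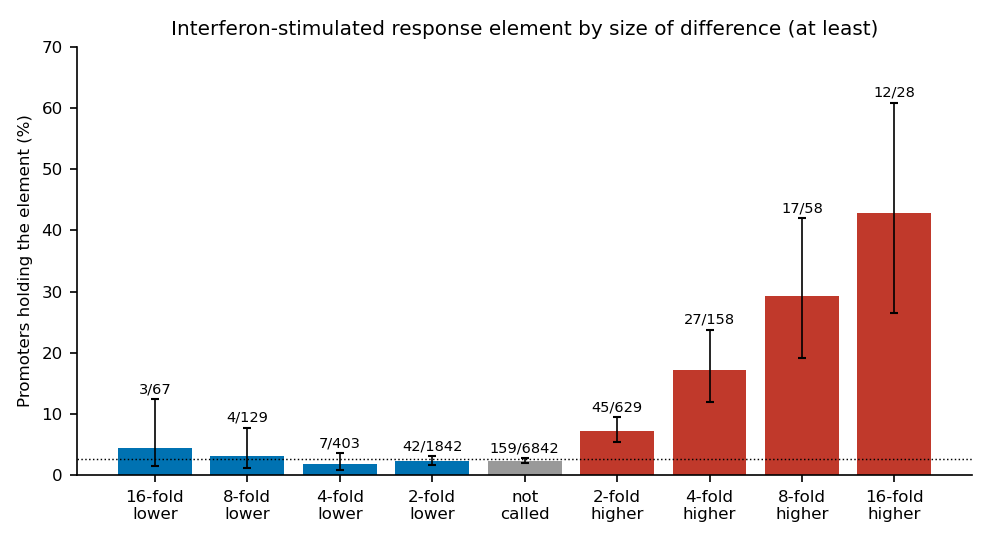
Percent of promoters (250 bases before the start) that hold the interferon-stimulated response element, by the least size and direction of the difference without STAT6. Bars are shares, lines are 95% Wilson intervals, labels give the number holding the element over the number of promoters, and the dotted line is the share over all 14452 genes, 2.63%. The share was 42.9% for genes at least 16-fold higher and 4.48% for those at least 16-fold lower.

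The elements that STAT dimers bind were searched in the same windows, as TTC and GAA with 3 bases between them, the general STAT form, or with 4, the form that STAT6 prefers. The first was held by 6.30% of all promoters, 6.84% of those of genes called higher and 5.32% of those called lower. It was in 6 of 20 antiviral genes, 3 of 6 GTPase genes and 4 of 8 type I interferon genes, whose family members share promoter sequence. The second was held by 4.88%, 4.77% and 4.45%. Of the Th2 genes, Il9 (1 of 8 cytokine genes with a promoter) and Inpp5d (1 of 13 genes of the interleukin-4 signal chain) held the form with 4 bases between, and none of 12 Th2 transcription factor genes did. These windows cover only the bases just before the start.

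Of 23 genes that fold and export proteins from the endoplasmic reticulum (ER), 13 were lower and none was higher (median −1.18). Other scalings gave from 11 to 14 lower, and quantile normalization and loess gave 1 higher. Sdf2l1, an ER chaperone component, read 8.42, 7.51, 10.64 and 7.80. Xbp1, the factor that expands the secretory pathway, read 12.29, 11.12, 13.90 and 11.74, and its 4 probe sets differed by −2.16 to −1.56. Sec24d, a coat protein of vesicles leaving the ER, read 7.27, 6.86, 9.18 and 6.97, and Creld2, a stress-induced ER protein, read 7.51, 7.93, 10.88 and 8.69. Th2 wild type cells were the highest array for all 4. STAT6-deficient cells lay between the Th1 arrays for the first 3 and above both for Creld2.

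The ER stress response element, searched as CCAAT and CCACG with 9 bases between them on both strands, was held by 18 of the 14452 promoters (0.125%), and 7 of these 18 belong to the 20 genes of the ER list with a promoter. The windows below, from RefSeq (GRCm38.p6), show these 7 with the element in capitals. The first 4 genes were called lower and the last 3 were not.
Creld2, chr15:88819479-88819578 (+ strand): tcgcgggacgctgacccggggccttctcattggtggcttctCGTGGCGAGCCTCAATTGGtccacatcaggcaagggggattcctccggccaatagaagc
Dnajc3, chr14:118937786-118937885 (+ strand): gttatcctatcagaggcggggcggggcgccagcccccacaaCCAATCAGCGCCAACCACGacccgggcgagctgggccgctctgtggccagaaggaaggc
Hsp90b1, chr10:86705493-86705592 (- strand): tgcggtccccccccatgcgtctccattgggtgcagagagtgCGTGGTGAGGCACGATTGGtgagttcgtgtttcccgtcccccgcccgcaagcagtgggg
Pdia6, chr12:17266450-17266549 (+ strand): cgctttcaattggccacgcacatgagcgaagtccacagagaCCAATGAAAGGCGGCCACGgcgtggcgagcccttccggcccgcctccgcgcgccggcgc
Calr, chr8:84847035-84847134 (- strand): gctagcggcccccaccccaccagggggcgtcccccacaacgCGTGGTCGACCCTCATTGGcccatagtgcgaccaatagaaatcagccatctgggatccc
Canx, chr11:50325760-50325859 (- strand): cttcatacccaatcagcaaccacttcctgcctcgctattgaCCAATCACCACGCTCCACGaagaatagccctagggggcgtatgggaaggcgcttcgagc
Hspa5, chr2:34771984-34772083 (+ strand): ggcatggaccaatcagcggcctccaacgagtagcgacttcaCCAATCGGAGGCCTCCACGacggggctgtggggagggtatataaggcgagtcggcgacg

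The genes with the element therefore differed among themselves. Creld2 (−2.20), the co-chaperone Dnajc3 (−1.86), the ER chaperone Hsp90b1 (−1.58) and the disulfide isomerase Pdia6 (−1.56) were lower. The calcium-binding chaperones Calr (−0.95) and Canx (−0.61) and the chaperone BiP, encoded by Hspa5 (14.13, 13.88, 13.72 and 13.91), were under the limit and were named for their promoters. The CCAAT box alone, which overlaps this element, was held by 35.7% of all promoters, 39.6% of those called lower and 38.8% of those called higher. It was in 16 of 20 ER genes, 15 of 16 sterol synthesis genes and 16 of 20 mitosis genes.

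Cell cycle genes were lower as a group, on the array with the larger actin difference. Of 25 genes of DNA replication and nucleotide synthesis 22 were lower and none higher (median −1.43), and of 24 mitosis genes 21 were lower and none higher (median −1.63). Tk1, the thymidine kinase, read 7.34, 7.04, 10.43 and 7.62, and Kif23, a motor of cell division, read 8.06, 8.58, 11.68 and 8.06. For both, STAT6-deficient cells lay close to the Th1 arrays, and Th2 wild type cells were alone in being high. Of the inhibitors and D cyclins, Cdkn2d (−2.99) and Cdkn2c (−1.30) were lower. Ccnd3, which promotes entry into the cycle, was lower on its main probe set (−2.32), but the median over its probe sets was 0.44. Btg2, which slows division, was higher (1.09), or 0.97 with the hybridization controls.

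Metabolic groups differed from one another. Of 16 hypoxia-response genes, 9 were lower and 2 higher (median −1.26), with Bnip3, a mitophagy receptor, at 8.39, 7.92, 12.95 and 8.57. Of 20 glycolysis genes, 6 were lower (median −0.85), with the largest differences in the lactate exporter Slc16a3 (−2.16) and the glucose transporter Slc2a3 (−2.14). Of 20 sterol synthesis genes, 11 were lower (median −1.09), but 7 after loess or quantile normalization. Among fatty acid genes 5 of 17 were lower, with the desaturase Scd2 at −2.40, and Acsl6, an acyl-CoA synthetase, was higher at 6.70, 8.17, 6.38 and 11.54. Amino acid uptake and serine pathway genes had 6 of 21 lower (median −0.50), but 2 after loess and 3 after quantile normalization. The fatty acid and amino acid groups lay near the background, with medians of −0.50 against −0.30 over all genes and 5 of 17 and 6 of 21 lower against 19.5%. The glycolysis count, 6 of 20 lower, was as near to that share, while the group's median of −0.85 lay further from −0.30.

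The ACGTG core bound by hypoxia-inducible factors, read on both strands, was in 9 of 15 hypoxia gene promoters, 9 of 20 ER gene promoters and 19.8% of all. The same letters are part of other elements.

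Several large machines of the cell showed few or no calls. None of 24 proteasome subunits (median −0.36) and none of 12 ribosomal proteins (median −0.05, from −0.17 to 0.09 under other scalings) was called. Of 18 ribosome assembly genes Nop58 was lower (−1.65) and none was higher (median 0.51), and of 25 respiratory chain genes Cox6c (1.30) and Cox7a2 (1.06) were higher and none lower (median −0.39). The T cell receptor complex and its kinases had 1 lower, Cd247 (−1.58), and 1 higher, Cd6 (1.61), of 17. Their median was −0.07 as deposited and 0.04 to 0.14 after median centring, loess or quantile normalization.

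Immediate early genes, a group that restimulation can induce, counted 5 higher and 1 lower among 25, and their median of 0.01 was −0.11 with the hybridization controls. Every array came from restimulated cells, so induction itself was not measured. Cd69, an early activation receptor, read 12.29, 12.11, 10.29 and 12.33, and the phosphatase gene Dusp1 (1.95), Spry1 (1.43) and Myc (1.19) were higher, while Fosl1 was lower (−1.30). Of 14 NF-kappaB genes 6 were higher and 1, Bcl3 (−1.69), lower. With the hybridization controls 3 were higher. The inhibitors Nfkbie (1.58) and Nfkbid (1.30) led them.

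Among survival and death genes, Casp6, an executioner caspase, read 10.43, 7.74, 13.19 and 7.82. The knockout of each culture condition was the lower array, and both Casp6 probe sets were lower (−5.37 and −3.98). Bcl2l11, which encodes the death-promoting protein BIM, was 1.89 higher. Of the group's 16 genes, 4 were lower and 1 higher, and the median of −0.07 turned to 0.07 to 0.17 after median centring, loess or quantile normalization. These counts were near the shares over all genes, 19.5% lower and 7.01% higher. Of the cytotoxic genes at the level minimum, Gzma read 12.59, 8.54, 13.67 and 6.39 and Gzmb 12.86, 11.73, 14.81 and 13.57, and both were brightest in Th2 wild type cells. Klrd1, which encodes the receptor chain CD94, read 11.36, 9.58, 3.37 and 7.38, and it was dimmest there.

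Of 20 proteases and matrix genes, 10 were lower and 3 higher (median −0.93). Mmp10, a matrix metalloproteinase, had the largest difference of all genes whose probe sets agreed, 241-fold, at 7.23, 6.18, 13.86 and 5.95. Adamtsl3 read 5.20, 5.34, 11.40 and 4.49 and Emilin2, an extracellular matrix glycoprotein, read 6.22, 5.47, 11.68 and 5.08. All 3 were bright in Th2 wild type cells alone. Adamts6 (3.29) and S100a4 (2.29) were higher. Of the integrins, Itgb3 read 9.49, 9.86, 12.14 and 8.94 and Itga4 was 1.64 higher, with a median over its probe sets of 0.49.

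Chromatin enzymes split, with 6 of 26 lower and 4 higher and a median of −0.12 that was 0.02 to 0.09 after median centring, quantile normalization or loess. The share called lower was near the 19.5% over all genes, of which 7.01% were higher. The demethylation enzyme Tet3 read 7.64, 8.20, 7.86 and 5.24, and Uhrf1 (−1.98) and Ezh2 (−1.74), which maintain DNA and histone methylation, were lower. The histone deacetylase Hdac7 (9.82, 11.68, 9.55 and 11.42) and the DNA methyltransferase Dnmt3a (9.41, 10.56, 10.18 and 11.83) were higher. For both, the knockout was the higher array of each culture condition.

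Of the genes furthest from equal values that belong to no group above, Rnf152 read 3.25, 3.84, 11.45 and 4.15, Tanc2 6.44, 6.22, 11.37 and 4.49, Gpm6b 7.69, 4.76, 11.14 and 4.85 and Aqp9, a water and glycerol channel, 6.89, 6.22, 10.54 and 4.44. Cyp11a1, the steroid-synthesis enzyme of the mitochondrion, read 5.24, 5.07, 13.46 and 5.77. Each was brightest in Th2 wild type cells. On the higher side, Idi2, an isopentenyl diphosphate isomerase, read 3.78, 4.47, 4.14 and 9.88, Ipcef1 9.75, 10.49, 6.50 and 12.04, Lad1 7.31, 11.90, 6.84 and 11.79 and Calhm6 8.88, 10.10, 5.20 and 9.86. Idi2 was above the minimum in STAT6-deficient cells alone, and Lad1 and Calhm6 were as bright or brighter in STAT4-deficient Th1 cells. The 3 Ipcef1 probe sets ran from 0.69 to 5.54.

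Agreement between the probe sets of a gene varied with the size of the difference. Among called genes with several probe sets at the level minimum, all probe sets were on the same side in 79.2% of higher and 85.5% of lower genes. Among those at least 8-fold apart the shares were 96.8% (30 of 31) and 97.0% (65 of 67), at 16-fold 92.3% (12 of 13) and 97.0% (32 of 33), and at 32-fold 3 of 4 higher genes and 92.3% of lower genes (12 of 13). At 4-fold 217 genes were higher and 502 lower, at 8-fold 84 and 161, and at 16-fold 34 and 79. Of the lower calls, 21.4% were under the level minimum in STAT6-deficient cells, and of the higher calls 28.3% were under it in wild type cells. In 5 equal groups by mean level, the median difference was −0.11, −0.07, −0.26, −0.42 and −0.20 from the dimmest to the brightest genes.

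Called genes also lay side by side along the chromosomes, in the order of the RefSeq table. Among 11472 placed genes at the level minimum there were 30 runs of at least 3 neighbours called higher (106 genes) and 106 runs called lower (363 genes). Quantile normalization moved the numbers of runs to 43 and 41. Lower calls were more common than higher calls over all genes (19.5% against 7.01%), and these shares alone would give more lower runs. The run counts were not compared with a random gene order, so clustering along the chromosomes was not tested. Higher runs included the Ms4a genes on chromosome 19 (6 genes, 1.53 to 4.28), the Trim5 and Trim30a cluster on chromosome 7 (6 genes), the guanylate-binding proteins from Gbp7 to Gbp2 on chromosome 3, the chemokines Ccl5, Ccl9, Ccl3 and Ccl4 on chromosome 11, and Lst1, Ltb, Tnf and Lta on chromosome 17. Lower runs included the receptors Cxcr6, Ccr1, Ccr3 and Ccr2 on chromosome 9 (−5.90 to −2.65), the metalloproteinases Mmp13, Mmp12 and Mmp10 with Dcun1d5 on the same chromosome, Gzma with Ccno, Gpx8, Esm1 and Snx18 on chromosome 13, and the Armcx genes on chromosome X (−3.94 to −2.30). Tnfsf13b and Irs2 lie in 1 lower run on chromosome 8 with Myo16 and Rab20.

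**Figure D5:**
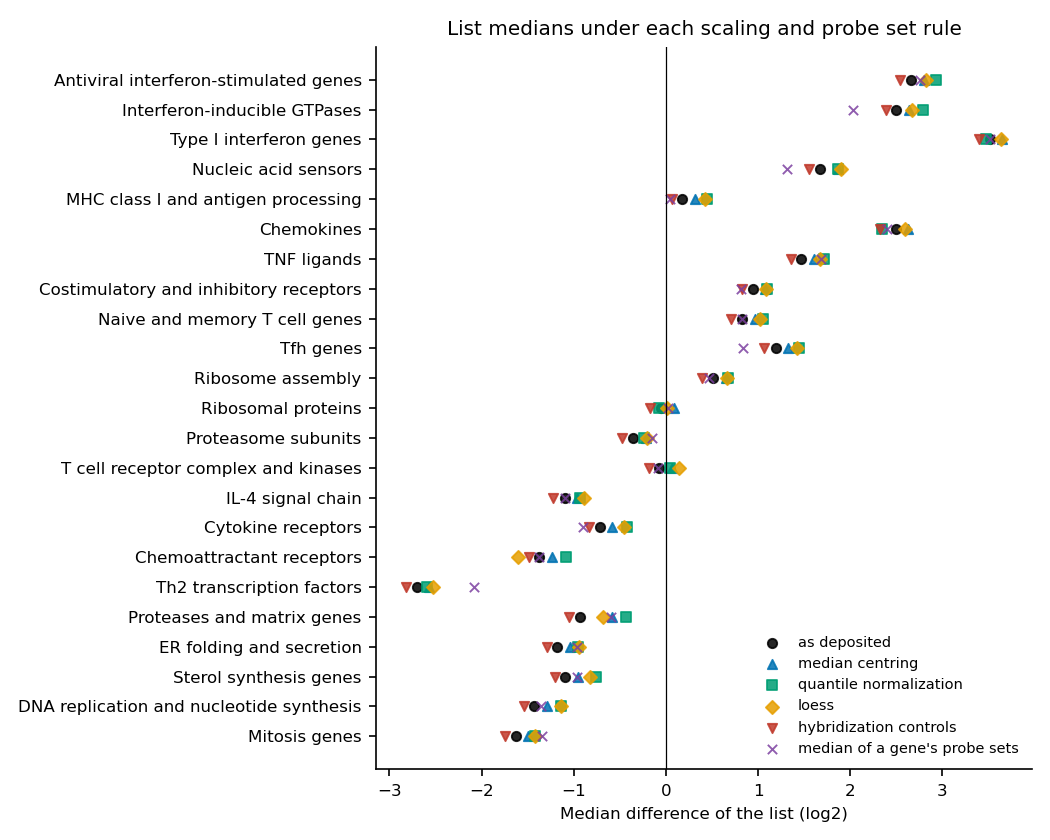
Median difference (STAT6-deficient minus wild type, log2) of 23 gene groups as deposited, under 4 other scalings between arrays and with the median of each gene's probe sets. Points of 1 row are the same group. The interferon, chemokine, TNF ligand, Th2 transcription factor and cell cycle medians kept their side of 0 under all 6 settings, and the T cell receptor and ribosomal protein medians crossed it.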

How the data were processed

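Total RNA of 4 groups was hybridized to Affymetrix mouse genome arrays, 1 array each. The authors deposited 1 log2 value for each probe set, made with RMA (background correction and summary of a probe set's probes), per the submitters' processing notes. The RMA version, and whether the arrays were normalized together, are not given in the sources used here. The deposited arrays did not share a common distribution. Their medians over probe sets ran from 5.63 to 6.01 and their 75th percentiles from 7.53 to 8.10. The median and 75th percentile were 5.77 and 8.10 in Th2 wild type and 5.63 and 7.79 in STAT6-deficient cells. Other scalings were therefore tried (median centring, quantile normalization, loess and the hybridization controls), as were the median of a gene's probe sets, a level minimum at the 75th percentile and a 4-fold limit. Gene names came from the platform annotation, and 932 probe sets with several genes were left out. RefSeq (GRCm38.p6) matched 34741 probe sets and gave gene order and promoters, of which the first listed for each gene was used. Intervals are Wilson's and cover the number of promoters alone.

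The 44 gene lists, the 7 marker lists and the rule for named genes were written with earlier results of these data known, so they are descriptions. Lists share members, and list members without a probe set of their own are not analysed here. Named were the 20 largest differences in each direction, all members of 4 T helper and interleukin-4 lists, up to 4 called members per direction of other lists, and genes of runs of at least 4. Genes named beyond this rule were chosen after their values were seen. They are Foxp3, Rsad2, Ifitm2, Ifna9, Ifna11, Dnajc3, Hsp90b1, Pdia6, Calr, Canx, Hspa5, Ifnar1, Ifnar2, Irf9, Stat2, H2-K1, H2-D1 and B2m. The markers Lyz2, Tyrobp, Itgam, Ms4a1, Cd79a and Fcer1a lie outside it as well. Dctn2, Mbd6 and the markers Cd8a, Cd79b, Pax5, Ighm, Gata2 and Kit also lie outside the rule. Differences were computed with Python 3.11.15, numpy 2.4.6 and pandas 2.3.3. The code was run on simulated data whose changes all exceeded the call limit, in genes well above the level minimum. Those data held no scaling or RNA quality difference, so the run checked the code and not the calls. The number of arrays limits the precision.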

Additional observations from a re-analysis of the deposited data

How the results depend on the processing

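The count of genes called lower was 2237 as deposited, 1453 after quantile normalization and 502 at the 4-fold limit, where 217 were called higher. The share of calls that were higher was 26.5% as deposited, 36.0% after median centring, 40.9% after loess, 43.4% after quantile normalization and 20.1% when scaled by the hybridization controls. Runs of neighbouring genes numbered 136 as deposited and 84 after quantile normalization. With the median of a gene's probe sets, Nt5e was −0.37, Ccnd3 0.44 and Slc44a1 0.03, each turned in sign, and the cause was not tested. The share of higher genes whose promoter held the interferon-stimulated response element ran from 6.09% to 8.58% over the other settings and was 8.11% when any listed promoter of a gene counted. Of 388 named genes with a call, 369 had the same call after median centring, 359 after loess, 344 after quantile normalization, 376 with the hybridization controls, 332 with the median of probe sets, 324 with the higher level minimum and 257 under all of these. Runs and promoter shares under other settings were added after the data were seen. No paired analysis was possible because each group had 1 array. Signal over background limits genes near 5.82, and no replicate spread can be set beside any value.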

Other observations

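The genes on either side of Stat6 were read as a check on the knockout's surroundings. Of 10 neighbours, 5 on each side, none was called. Among those at the level minimum the differences ran from −0.02 for Ndufa4l2, Nxph4 and Zbtb39 to 0.41 for Stac3. Outside these 10 genes, Dctn2, Mbd6 and Ddit3 formed a run of 3 called lower on chromosome 10, which also holds Stat6 (−1.22 to −1.1). Ddit3 lost its call after quantile normalization (−0.93) and loess (−0.95). The distance of this run from Stat6 was not measured, and a link to the knockout was not tested. Shmt2, an enzyme of the serine and glycine pathway, read 11.63 without STAT6 and 11.48 with it, and Nab2, a co-repressor of the early growth response factors, read 11.29 and 11.20.

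Of the reference genes, Actb was lower on its main probe set (12.58 against 14.11), with another probe set at 0.47 and a median of −0.53. The other 8 of 9 were not called. They lay between −0.85 for Pgk1 and −0.09 for Gusb, and the group's median of −0.48 was from −0.60 to −0.32 under the other scalings.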
